A study of Homo sapiens with 12 samples.

Results

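Small nucleolar RNA host genes were described in poly-A RNA of HEK293T cells that carried a microRNA degradation trigger or a control reporter. The members were the genes named SNHG and a number, plus GAS5, on the assembled chromosomes: 29 of 67053 genes. The level of a gene was its FPKM (fragments scaled to transcript length and to the mapped fragments of the library) summed over its transcript models. Of the 29 genes, 23 reached FPKM 1 in at least 2 libraries and were tested among 15183 genes. The other 6 were SNHG14, SNHG18, SNHG22, SNHG27, SNHG28 and SNHG31. SNHG18 and SNHG27 were listed at 0 in every library, and none of these 6 exceeded FPKM 0.34 (SNHG22). SNHG14, the long imprinted host of the SNORD115 and SNORD116 clusters, stayed at or under 0.0628. The lowest tested host by mean was SNHG26, at FPKM 3.37 to 6.57.

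Host genes of this kind carry small nucleolar RNAs (snoRNAs) in their introns. After splicing, the snoRNA is trimmed from the excised intron and assembled with proteins into a particle that modifies ribosomal RNA. Box C/D snoRNAs guide ribose methylation, box H/ACA snoRNAs guide pseudouridine formation, and the related RNAs of Cajal bodies guide modification of spliceosomal RNAs. The spliced exons have little or no coding capacity, and for several hosts, GAS5 and SNHG1 among them, the spliced RNA is a known substrate of nonsense-mediated decay (NMD). Many hosts start with a pyrimidine stretch like that of ribosomal protein mRNAs, which ties their translation, and through it their decay, to growth signals.

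HEK293T is a human embryonic kidney line that expresses the SV40 large T antigen. Cells received 2 µg of a GFP reporter plasmid with a BCL2L11 trigger, with a TRIM9 trigger, or the GFP control plasmid, and RNA was taken at 48 h. The triggers are target RNA stretches that direct the decay of miR-221/222 (BCL2L11) and miR-218 (TRIM9), and the study asked whether they lowered those microRNAs. Each group had 2 poly-A libraries, given as biological replicates, and 2 small RNA libraries. All cells were transfected, with polyethylenimine or lipofectamine; the labels do not tie an agent to a sample. The libraries with title numbers 1 to 3 are called library set 1 and those with 4 to 6 library set 2, and each set has 1 library per group. The labels mention no batch and no pairing.

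The 6 libraries held 83584 to 110534 transcripts above FPKM 0 and 3397 to 4523 Mb of sequenced bases on transcripts, and no pair of the 15 had identical values. Of the 5 HEK293T markers 4 were present, and PAX2 stayed at FPKM 0.613 or lower. The HEK293T markers summed to FPKM 124 to 148 in set 2, against 45.1 to 62.8 in set 1, with IRS4 at 65.4 to 80.3 in set 2, against 8.61 to 16 in set 1. The 5 blood markers summed to FPKM 3.05 to 4.09 in set 2, against 6.15 to 8.36 in set 1, nearly all of it HBA1, with PTPRC, CD3E and HBB at 0. The 5 fibroblast markers summed to FPKM 2.01 to 2.51 in set 2, against 1.48 to 7.60 in set 1.

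Every one of the 23 tested hosts had at least 1 annotated snoRNA or Cajal body RNA within its span, 57 in all by the RefSeq gene table (GRCh38.p14), which gives no strand. Of the 57, 34 were box C/D snoRNAs, 20 were box H/ACA snoRNAs and 3 were Cajal body RNAs. GAS5 (chr1:173858559-173868882, hg38) held 11, SNORD44, SNORD47, SNORD74 to SNORD81 and SNORA103. SNHG1 (chr11:62851984-62855953) held 8, the SNORD22 cluster. SNHG12 and SNHG17 held 4 each, SNHG29 and SNHG16 held 3 each, and 10 hosts held 1. Of the hosts, 9 carried box C/D snoRNAs alone, 8 carried box H/ACA snoRNAs alone, GAS5, SNHG12 and SNHG25 carried both kinds, and SNHG10, SNHG20 and SNHG21 carried a Cajal body RNA.

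Most snoRNA entries stayed low in the poly-A libraries. The deposited tables held 47 snoRNA or Cajal body RNA entries on the strand of a tested host, some names more than once and none within GAS5. The snoRNAs of GAS5 were thus not measured. Of the 47 entries 39 never reached FPKM 1, and 8 did. The highest was SNORD104 in SNHG25, at FPKM 1.02 to 21.4.

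Annotated starts were taken from RefSeq (GRCh38.p14) to show the pyrimidine stretch. In the 20 bases from 5 before the start to 15 after it, on the gene's own strand, a run of at least 5 C or T that begins with C was searched. It was found somewhere in the window in 11 of the 19 tested hosts with an entry (57.9%), against 27.1% of all 35116 promoters in the table. With a minimum of 7 bases the share was 10.5% (2 of 19 hosts), against 8.97% of all promoters. The windows shown are those of 3 hosts that were lower in library set 2 (SNHG5, SNHG12, SNHG19), the host that was higher (SNHG4), SNHG32, and SNHG1 and SNHG30, in which no run was found. Capitals mark the longest run.
SNHG5, chr6:85678719-85678738, minus strand: tcggtCTTTTacgtcggcct
SNHG12, chr1:28581859-28581878, minus strand: agcgCCCTTTCTCCCCgccg
SNHG19, chr16:2155344-2155363, minus strand: cctgtCTTTTCggggtcgag
SNHG4, chr5:139274096-139274115, plus strand: ggctgCCCTTTCCCCTCCgg
SNHG32, chr6:31834911-31834930, plus strand: tagttCTTTTTgcgaagtgg
SNHG1, chr11:62855871-62855890, minus strand: tcgttctcatttttctactg
SNHG30, chr17:35568109-35568128, plus strand: gacctgagccgggcggagaa
In SNHG5, SNHG19, SNHG4 and SNHG32 the run begins exactly at the annotated start. It begins 1 base before the start in SNHG7 and SNHG12, and 5 bases before it in SNHG8. In SNHG17, SNHG16, SNHG11 and SNHG26 it begins at positions 4, 6, 10 and 11, counting the start as 1. The share of all promoters with a run that begins at a given position was not counted. The windows of SNHG12 and SNHG4 hold the longest runs among tested hosts, 12 and 13 bases. The start of SNHG1 reads C and T for a few bases and is then broken by an A. The longer stretch of C and T that follows begins with T, so the window holds no run under the rule. The RefSeq starts of GAS5, SNHG3 and SNHG26 lay 163, 37 and 14 bases from the nearest model start in the deposited tables. All 3 are in the count, and the window of GAS5 is not shown. Models that start within 10 bases of the RefSeq start held 0% of the FPKM in these 3 and in SNHG20. Such models held 2.12% in SNHG29, 2.99% in SNHG10 and 3.37% in SNHG11, and up to 100% in SNHG19. In SNHG5, SNHG4 and SNHG32 such models held 11.4%, 22.6% and 43.1%.

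The 23 tested hosts ranged from a mean FPKM of 5.1 (SNHG26) to 374 (GAS5). GAS5, a growth-arrest-associated host, was the most abundant, with FPKM 458 and 247 in BCL2L11 libraries, 437 and 258 in TRIM9 libraries and 572 and 274 in GFP libraries. SNHG29 followed with FPKM 411 and 227 in BCL2L11 libraries, 367 and 277 in TRIM9 libraries and 305 and 217 in GFP libraries. GAS5 ranked 157 and SNHG29 ranked 182 among all genes by mean FPKM, a scale that corrects for length. In both genes the lower library of every group was the one of set 2, and the difference within a group was larger than any difference between group means.

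SNHG1 was the steadiest abundant host, with FPKM 184 and 162 in BCL2L11 libraries, 196 and 163 in TRIM9 libraries and 160 and 162 in GFP libraries. Its highest library was 1.23 times its lowest. SNHG5, host of SNORD50A and SNORD50B, had FPKM 261 and 100 in BCL2L11 libraries, 254 and 120 in TRIM9 libraries and 155 and 112 in GFP libraries. SNHG6, host of SNORD87, had FPKM 150 and 51.2 in BCL2L11 libraries, 95.5 and 67.3 in TRIM9 libraries and 209 and 58.3 in GFP libraries. SNHG5 and SNHG6 were thus spread over 2.61 and 4.08 times, with every group overlapping every other.

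SNHG16, host of the SNORD1 snoRNAs, had FPKM 86.0 and 84.0 in BCL2L11 libraries, 108 and 91.5 in TRIM9 libraries and 161 and 80.8 in GFP libraries. SNHG15, host of SNORA9, had FPKM 97.7 and 59.7 in BCL2L11 libraries, 60.8 and 41.9 in TRIM9 libraries and 80.4 and 99.9 in GFP libraries. SNHG17, host of the SNORA71 snoRNAs, had FPKM 82.2 and 54.0 in BCL2L11 libraries, 67.9 and 41.6 in TRIM9 libraries and 88.7 and 79.6 in GFP libraries. In SNHG15 and SNHG17 both TRIM9 libraries lay below both GFP libraries. The ratio of the highest to the lowest library was largest in SNHG8 (9.18 times), SNHG19 (5.75 times) and SNHG25 (4.43 times).

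**Figure D1:**
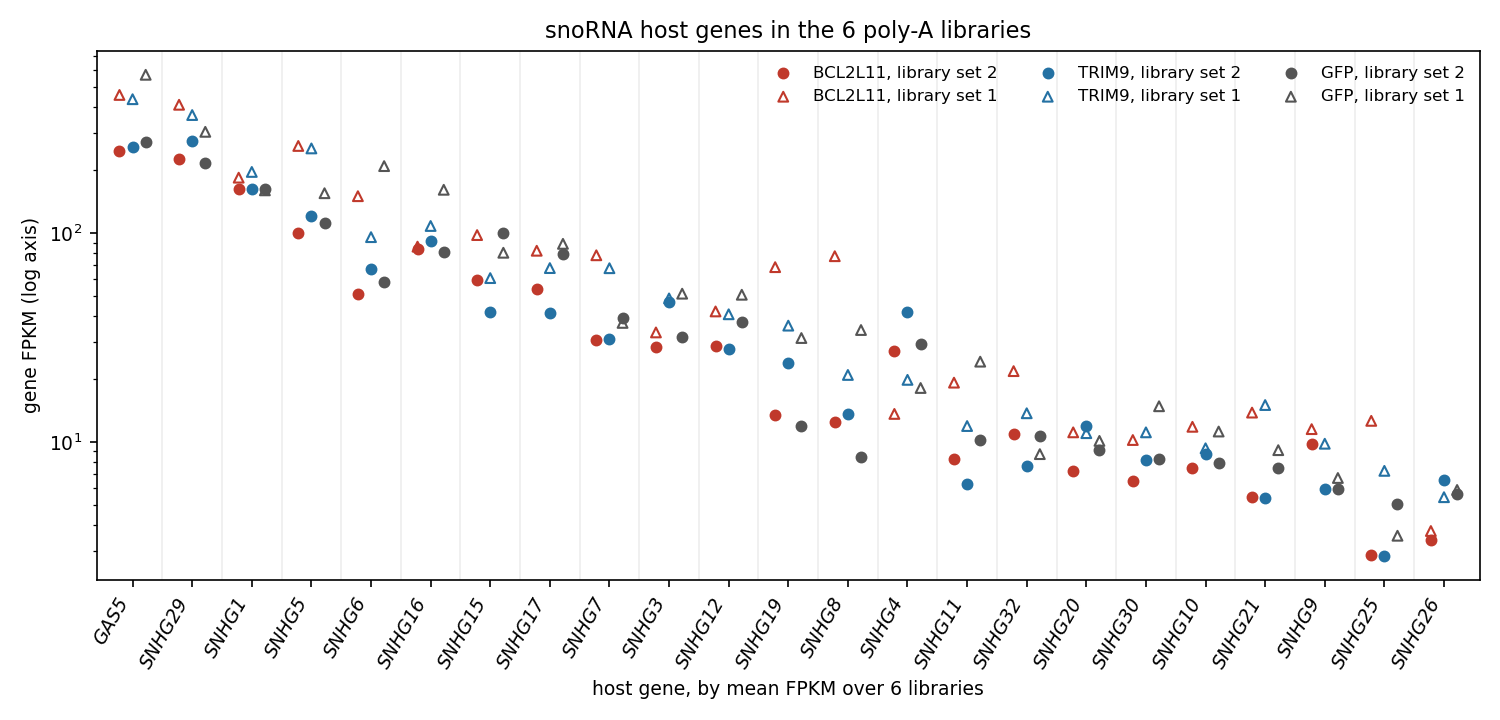
Gene FPKM (log axis) of the 23 tested host genes, ordered by mean, in the 2 libraries of each group; filled circles are library set 2 and open triangles are set 1. Triangles stand above circles for most hosts, SNHG4 shows the opposite order, and SNHG1 is nearly level at FPKM 160 to 196.

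The BCL2L11 trigger was compared with the GFP control by limma on log2(FPKM + 1). None of the 23 hosts passed an adjusted p of 0.05 (Benjamini-Hochberg over all genes), and none had an unadjusted p under 0.05, where 83 of all genes did. Over all genes 0.00659% passed. The median difference over the hosts was −0.08 (log2), equal to the −0.08 of all genes, with 11 hosts above 0 and 12 below. The host median turned with single libraries: it was 0.23 without GFP replicate 1, −0.44 without BCL2L11 replicate 1, −0.12 without GFP replicate 2 and 0.27 without BCL2L11 replicate 2. Both BCL2L11 libraries lay above both GFP libraries in 3 hosts (SNHG1, SNHG9 and SNHG32), where 4.44% of all genes did so. They lay below in 1 host (SNHG26), where 12.3% of all genes did. Of the 3 higher hosts, SNHG1 and SNHG32 were near ties, with differences of 0.001 and 0.023 (log2) within set 2.

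The 3 largest differences of the BCL2L11 trigger were those of SNHG8, SNHG9 and SNHG19. SNHG8, host of SNORA24, had FPKM 77.4 and 12.4 in BCL2L11 libraries, against 34.3 and 8.43 in GFP libraries. Its difference was 0.83 ± 0.90 (log2, SE), and the groups overlapped. SNHG19, host of SNORD60, had FPKM 68.6 and 13.4 in BCL2L11 libraries, against 31.4 and 11.9 in GFP libraries, a difference of 0.63 ± 0.77 (log2, SE). SNHG9, host of SNORA78, had FPKM 11.5 and 9.76 in BCL2L11 libraries, against 6.71 and 5.94 in GFP libraries. There the difference of 0.67 ± 0.33 (log2, SE) was seen in both sets (0.63 within set 2 and 0.70 within set 1). Its unadjusted p was 0.0848 by limma and its adjusted p 1.

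SNHG26, host of SNORD93, had FPKM 3.74 and 3.37 in BCL2L11 libraries, against 5.88 and 5.61 in GFP libraries. That is −0.57 ± 0.29 (log2, SE), with a 95% interval of −1.26 to 0.12. The standard errors of the 23 hosts in this comparison were 0.29 (SNHG26) to 0.90 (SNHG8). The widest 95% interval, that of SNHG8, ran from −1.30 to 2.96. This fit has no term for the library sets, by which SNHG8 also differed.

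The TRIM9 trigger, too, gave no call among the 23 hosts against GFP, and none had an unadjusted p under 0.05, where 175 of all genes did and 0.00659% passed after adjustment. The median was 0.08 (log2), against −0.04 for all genes. It was −0.31 without TRIM9 replicate 1, −0.10 without GFP replicate 2, 0.22 without GFP replicate 1 and 0.18 without TRIM9 replicate 2. Both TRIM9 libraries lay below both GFP libraries in 2 hosts (SNHG15 and SNHG17), where 11.2% of all genes did, and above in 2 (SNHG1 and SNHG20), where 6.66% did. SNHG1 was a near tie here too, with a difference of 0.006 (log2) within set 2. SNHG15 had the lowest p of any host, with the values given above: −0.82 ± 0.37 (log2, SE), or 0.568 times the GFP level, at an unadjusted p of 0.0637 and an adjusted p of 1 by limma. Within the sets the difference was −1.23 in set 2 and −0.40 in set 1. SNHG17 differed by −0.65 ± 0.37 (log2, SE).

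SNHG11, host of SNORA60 and SNORA71E, had FPKM 11.9 and 6.29 in TRIM9 libraries, against 24.2 and 10.2 in GFP libraries. The higher TRIM9 library overlapped the GFP range, and the difference was −0.80 ± 0.56 (log2, SE). The lower TRIM9 value and the lower GFP value were again those of set 2. SNHG19 had FPKM 36.0 and 23.8 in TRIM9 libraries, against 31.4 and 11.9 in GFP libraries, and SNHG8 had 20.9 and 13.6 in TRIM9 libraries, against 34.3 and 8.43 in GFP libraries. Neither separated the groups.

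The 2 triggers were also set against each other. None of the 23 hosts passed, none had an unadjusted p under 0.05 where 98 of all genes did, and 0.0132% of all genes passed. Both BCL2L11 libraries lay below both TRIM9 libraries in 3 hosts (SNHG3, SNHG16 and SNHG26), where 8.44% of all genes did, and above in 0 hosts, where 5.72% did. SNHG3, host of the SNORA73 snoRNAs that act in ribosomal RNA cleavage, had FPKM 33.4 and 28.4 in BCL2L11 libraries, against 48.6 and 46.8 in TRIM9 libraries, and 51.2 and 31.9 in GFP libraries. The difference between the triggers was −0.62 ± 0.33 (log2, SE). SNHG26 had FPKM 3.74 and 3.37 in BCL2L11 libraries, against 5.43 and 6.57 in TRIM9 libraries, −0.62 ± 0.29 (log2, SE), with an unadjusted p of 0.0723 and an adjusted p of 1 by limma. SNHG8 differed by 0.86 ± 0.90 (log2, SE), with 1 BCL2L11 library at FPKM 77.4 and the other, at 12.4, under both TRIM9 libraries. These comparisons share libraries: the BCL2L11 values of SNHG26 enter both its differences.

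**Figure D2:**
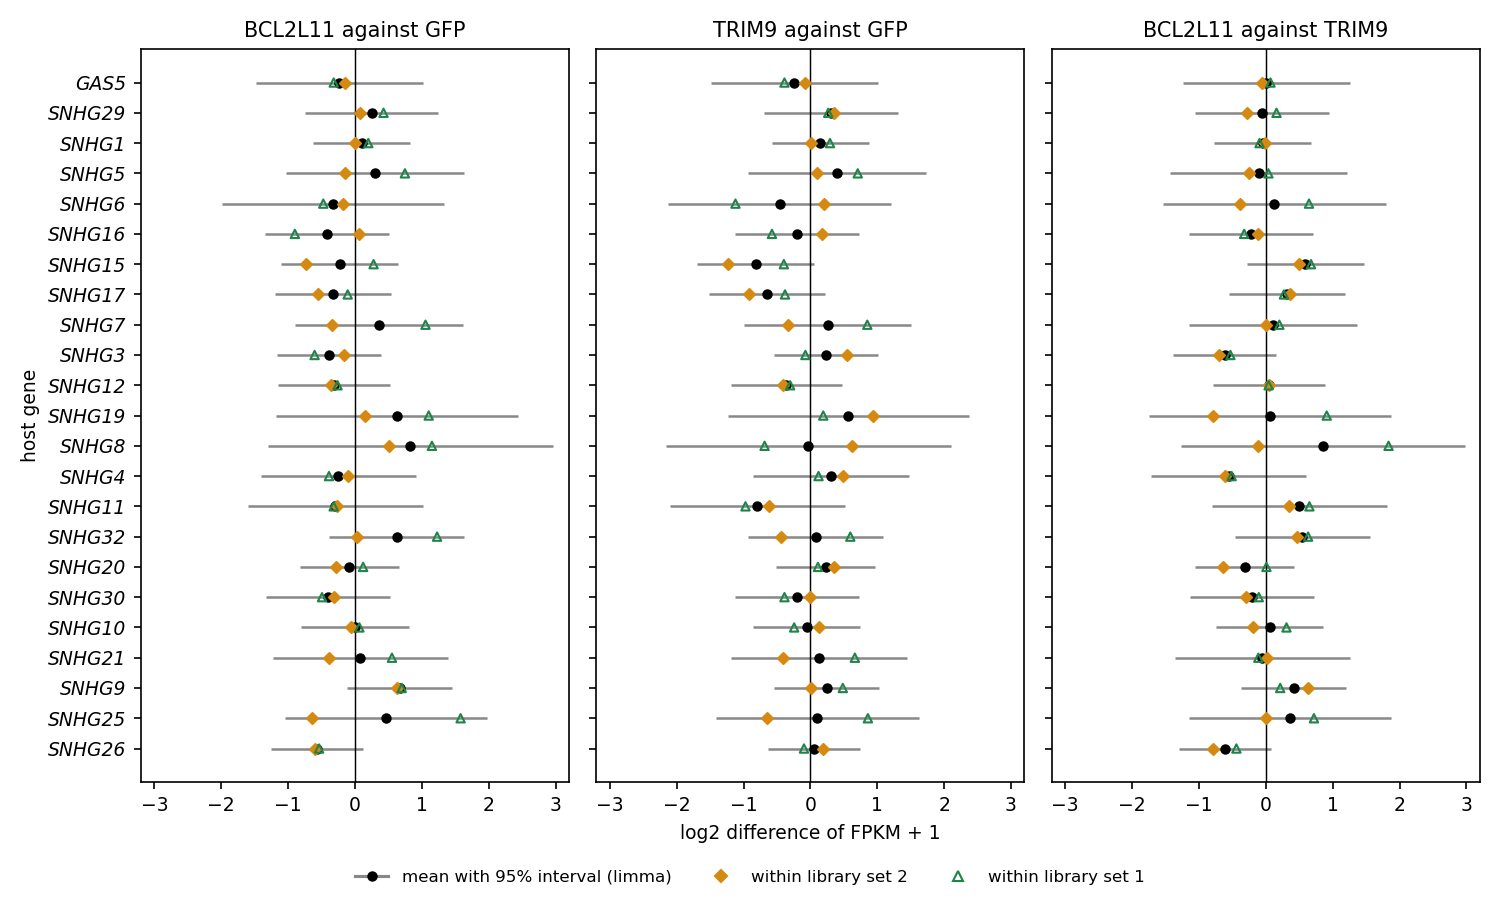
Log2 difference of FPKM + 1 for each host gene in the 3 comparisons between groups; black points are means with 95% intervals from limma, orange diamonds the difference within library set 2 and green triangles that within set 1. Every interval crosses 0, and for hosts such as SNHG5, SNHG7 and SNHG25 the sets fall on opposite sides of 0 in the BCL2L11 comparison.

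The authors' deposited gene tables listed 18 of the hosts for each trigger. In the authors' deposited table for BCL2L11 the q-value of every listed host was 1.0 and the p-value was under 0.05 for 1 host, SNHG3, at 0.0187. In the authors' deposited table for TRIM9 every q-value was likewise 1.0 and 0 hosts had a p-value under 0.05. The direction of the fold changes in those tables is not stated in their headers, and they are not given here.

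Hosts passed between the library sets, where none did for the triggers, but the fits are unlike. The set fit compares 3 libraries with 3 and has a term for group, with host standard errors of 0.13 to 0.41 (log2). The trigger fits compare 2 with 2 and have no term for the set, with standard errors of 0.29 to 0.90. In a fit with group and set as terms, 11 of 23 hosts passed an adjusted p of 0.05 (47.8%), where 32.9% of all genes did. Of these, 10 were lower in set 2 (43.5% of the hosts), where 10.3% of all genes were, and SNHG4 was higher, where 22.5% of all genes were. The median difference was −0.50 (log2) over the hosts and 0.06 over all genes. In 15 hosts the set 2 library was the lower one in all 3 groups, and in 1 host it was the higher one in all 3. The share of all genes with such an order is not given here, so these counts are not particular to the hosts. All 3 set 2 libraries lay below all 3 set 1 libraries in 11 hosts, where 18.2% of all genes did, and above in 1, where 31.7% did. This measure compares libraries by title number. The marker sums given above differed between the sets as well, and their part in the host values was not tested. What differed between the sets is not in the labels, and whether fewer RNA molecules per cell or another mix of cells lies behind a lower value cannot be told apart in bulk RNA.

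SNHG8 differed most. It had FPKM 12.4 (BCL2L11), 13.6 (TRIM9) and 8.43 (GFP) in set 2, against 77.4, 20.9 and 34.3 for the same groups in set 1. The difference was −1.68 ± 0.36 (log2, SE; adjusted p = 0.0213, limma). SNHG19 had FPKM 13.4 (BCL2L11), 23.8 (TRIM9) and 11.9 (GFP) in set 2, against 68.6, 36.0 and 31.4 in set 1, a difference of −1.39 ± 0.32 (adjusted p = 0.0245, limma). SNHG6 had FPKM 51.2 (BCL2L11), 67.3 (TRIM9) and 58.3 (GFP) in set 2, against 150, 95.5 and 209 in set 1, a difference of −1.28 ± 0.27 (adjusted p = 0.0202, limma). In these 3 hosts the TRIM9 pair differed least, by −0.50 to −0.59, and the set ranges did not overlap.

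SNHG11 and GAS5 fell by a like amount in every group. SNHG11 had FPKM 8.31 (BCL2L11), 6.29 (TRIM9) and 10.2 (GFP) in set 2, against 19.2, 11.9 and 24.2 in set 1, or −1.04 ± 0.14 (adjusted p = 0.0112, limma). GAS5 had FPKM 247 (BCL2L11), 258 (TRIM9) and 274 (GFP) in set 2, against 458, 437 and 572 in set 1, or −0.90 ± 0.14 (adjusted p = 0.0125, limma). The 3 GAS5 pairs differed by −0.76 to −1.06. SNHG5 had FPKM 100 (BCL2L11), 120 (TRIM9) and 112 (GFP) in set 2, against 261, 254 and 155 in set 1, or −0.97 ± 0.20 (adjusted p = 0.0201, limma). Its GFP pair, at −0.47, differed least.

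SNHG21, host of the Cajal body RNA SCARNA15, had FPKM 5.45 (BCL2L11), 5.40 (TRIM9) and 7.48 (GFP) in set 2, against 13.8, 15 and 9.12 in set 1, a difference of −0.93 ± 0.24. SNHG30, host of SNORD7, had FPKM 6.46 (BCL2L11), 8.20 (TRIM9) and 8.24 (GFP) in set 2, against 10.2, 11.1 and 14.8 in set 1, a difference of −0.59 ± 0.14. SNHG29 differed by −0.58 ± 0.16, from the values given above. SNHG12, with 4 snoRNAs of both kinds, had FPKM 28.9 (BCL2L11), 27.8 (TRIM9) and 37.4 (GFP) in set 2, against 42.1, 40.8 and 50.6 in set 1, a difference of −0.50 ± 0.13. The adjusted p of these 4 hosts was 0.0288 to 0.0372 by limma, and in each the highest set 2 library lay below the lowest set 1 library.

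SNHG4 went the other way. It had FPKM 27.2 (BCL2L11), 41.8 (TRIM9) and 29.4 (GFP) in set 2, against 13.6, 19.8 and 18.1 in set 1, or 0.88 ± 0.14 (adjusted p = 0.0127, limma). SNHG4 shares its locus and strand with MATR3, an RNA-binding protein of the nuclear matrix, and the assignment of reads between them is uncertain. MATR3 had FPKM 120 (BCL2L11), 154 (TRIM9) and 136 (GFP) in set 2, against 56.7, 88.7 and 91.1 in set 1, so it too was higher in every set 2 library. The part of MATR3 reads in the SNHG4 value was not tested.

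The remaining 12 tested hosts did not pass. SNHG1 (−0.14 ± 0.14) and SNHG26 (0.02 ± 0.14) lay nearest to 0. SNHG7, SNHG25 and SNHG17 had −0.78, −0.84 and −0.48, with adjusted p of 0.0857, 0.163 and 0.068 by limma. In SNHG7, SNHG25, SNHG32, SNHG15 and, by 0.02, SNHG1 the GFP pair differed in the opposite direction from both trigger pairs. SNHG7, host of the SNORA17 snoRNAs, had FPKM 30.8 (BCL2L11), 30.9 (TRIM9) and 39.3 (GFP) in set 2, against 78.2, 67.8 and 37.1 in set 1. SNHG20 and SNHG10 stayed between FPKM 7.28 and 11.9 in all 6 libraries. By the RNA carried, 5 of 9 box C/D hosts, 2 of 8 box H/ACA hosts, 2 of 3 hosts of both and 1 of 3 Cajal body RNA hosts were called lower in set 2. By the start, 5 of 11 hosts with a pyrimidine run in the window and 4 of 8 without one were called lower. Over all genes 10.3% were called lower, and 27.7% of those whose most abundant transcript model was at most 1500 bases long. Differences between these small classes of hosts were not tested. The 8 without a run include GAS5 and SNHG3, whose RefSeq starts lay 163 and 37 bases from any model start in the deposited tables. They also include SNHG1, whose longest stretch of C and T begins with T.

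The count of calls between the sets depended on which libraries were in the fit. Without either BCL2L11 library 5 hosts passed, without either TRIM9 library 4 passed, and without either GFP library 16 passed. Over all genes, 10.7% and 11.4% passed without a BCL2L11 library, 9.9% and 8.48% without a TRIM9 library and 54.7% without either GFP library. SNHG6, SNHG8, SNHG11 and SNHG19 passed in all 6 of these fits. GAS5 passed in 4 of the 6. SNHG4, SNHG5, SNHG12, SNHG21, SNHG29 and SNHG30 each passed in 2 of the 6, those without a GFP library. With no filter on low values 0 hosts and 0 of all genes passed, with 12 hosts at an unadjusted p under 0.05.

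**Figure D3:**
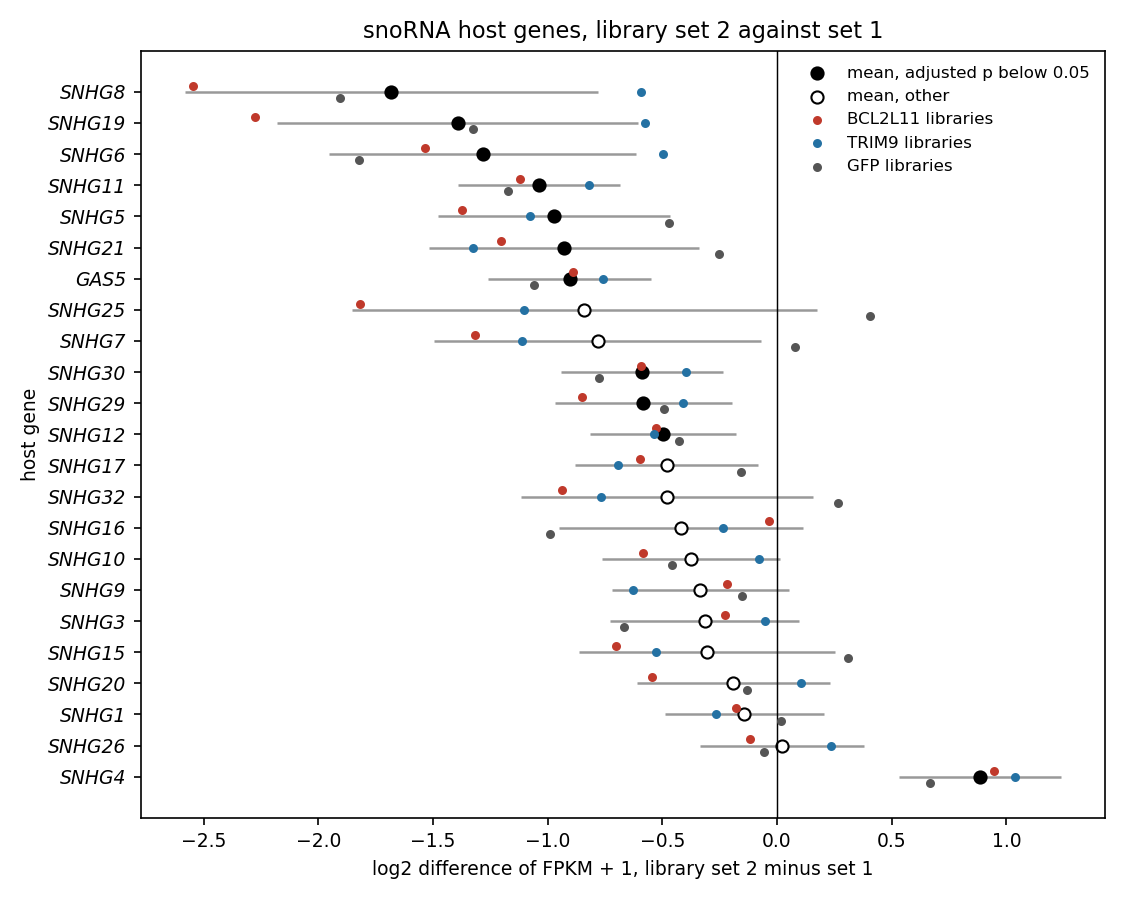
Log2 difference of FPKM + 1 between library set 2 and set 1 for each host gene, ordered by the mean; black points passed an adjusted p of 0.05, white points did not, bars are 95% intervals, and small points are the difference within the BCL2L11, TRIM9 and GFP libraries. The means run from −1.68 (SNHG8) to 0.88 (SNHG4), and 21 of 23 lie below 0.

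Length moved with the set difference, in the hosts and over all genes. Among genes whose most abundant transcript model was at most 1500 bases long, 27.7% of 3800 were called lower in set 2; among longer ones, 4.54% of 11383 were. Of the 17 short hosts 10 were called lower, and 0 of the 6 long hosts (SNHG3, SNHG4, SNHG10, SNHG16, SNHG20 and SNHG26). The median was −0.78 (log2) in the short hosts, against −0.38 in all genes of that length, and −0.25 in the long hosts, against 0.19 in all genes of that length. The hosts with the shortest leading models by mean, SNHG25 (278 bases), SNHG8 (327) and SNHG19 (342), had −0.84, −1.68 and −1.39. In several hosts another model led in single libraries. The 327-base model of SNHG8 led in 2 of 6 libraries, with 6.55% to 51.6% of its FPKM. In set 2 it had FPKM 1.05 (BCL2L11), 2.19 (TRIM9) and 0.552 (GFP), below a model of 6165 bases at 2.05, 3.03 and 2.76. The part of length in the host values was not tested.

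**Figure D4:**
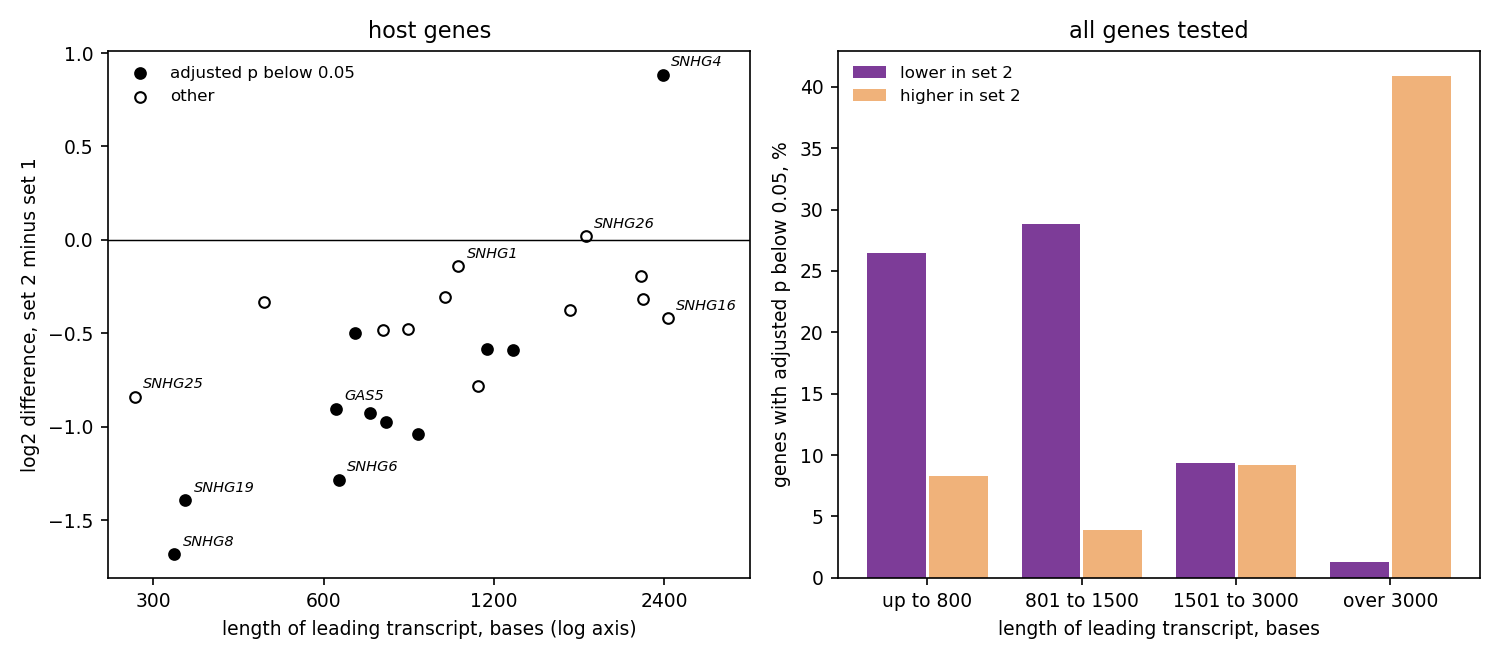
Left, log2 difference between library set 2 and set 1 for each host gene against the length of its most abundant transcript model (log axis); right, share of all tested genes called lower (purple) or higher (orange) in set 2 by that length. Calls of lower genes make up 26.5% and 28.8% of the classes up to 1500 bases and 1.28% of the class over 3000 bases, where 40.9% are higher. Length is that of the model leading by mean over the libraries, which in several hosts did not lead in every library.

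The most abundant transcript model of each host was followed as well. Host models with a mean FPKM of at least 1 were followed, and those of lower mean were not counted. None of those followed passed in any of the 4 comparisons, with 23 leading models and 183 host models tested among 33099 transcripts. Between the sets 10 leading models and 40 host models had an unadjusted p under 0.05, 29 of the 40 lower in set 2. Over all transcripts 7673 had such a p in that comparison and 0% passed. The direction of those 7673 was not counted, so the 29 cannot be set against a share over all transcripts. For the triggers 0 leading models had such a p against GFP and 1 did between the triggers. Among the 183 host models 12 had one for BCL2L11 against GFP, 7 for TRIM9 against GFP and 11 between the triggers, where 900, 982 and 714 of all transcripts did. Over all transcripts 0% passed for BCL2L11 against GFP, 0.00302% for TRIM9 against GFP and 0.00302% between the triggers.

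Which model led a host was often not stable. GAS5 has 31 models, and its leading one by mean (ENST00000450589.5, 12 exons, 632 bases) held 39.3% and 2.24% of the gene's FPKM in BCL2L11 libraries, 7.29% and 7.15% in TRIM9 libraries and 7.45% and 6.48% in GFP libraries. The high share was that of 1 BCL2L11 library, in set 1. SNHG5, with 89 models, had 0.538% to 40.5% in its leading model, SNHG1 had 4.91% to 36.9% and SNHG29 had 5.68% to 49.9%. In GAS5, SNHG29, SNHG1, SNHG5, SNHG12 and SNHG8, 4 different models came first over the 6 libraries. These shares are estimates that divide the same reads among overlapping models.

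Other hosts kept 1 model. SNHG19 has a single model and 100% of its FPKM there. SNHG6 kept 60.7% to 72.9% in a model of 638 bases, SNHG3 65.6% to 88.6%, SNHG30 76.4% to 91.4% and SNHG25 74.7% to 91.9%. The leading model of SNHG7 held 83.4% and 76.5% in BCL2L11 libraries and 84.1% and 75.0% in TRIM9 libraries, against 55.8% and 44.7% in GFP libraries. Both trigger groups lay above GFP without overlap, in a host named after its values were seen. How often shares separate in this way over all genes was not counted, and shares were not tested. The level of this model did not pass, at 1.01 ± 0.66 for BCL2L11 and 0.90 ± 0.66 for TRIM9 (log2, SE; adjusted p = 1 each, limma).

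**Figure D5:**
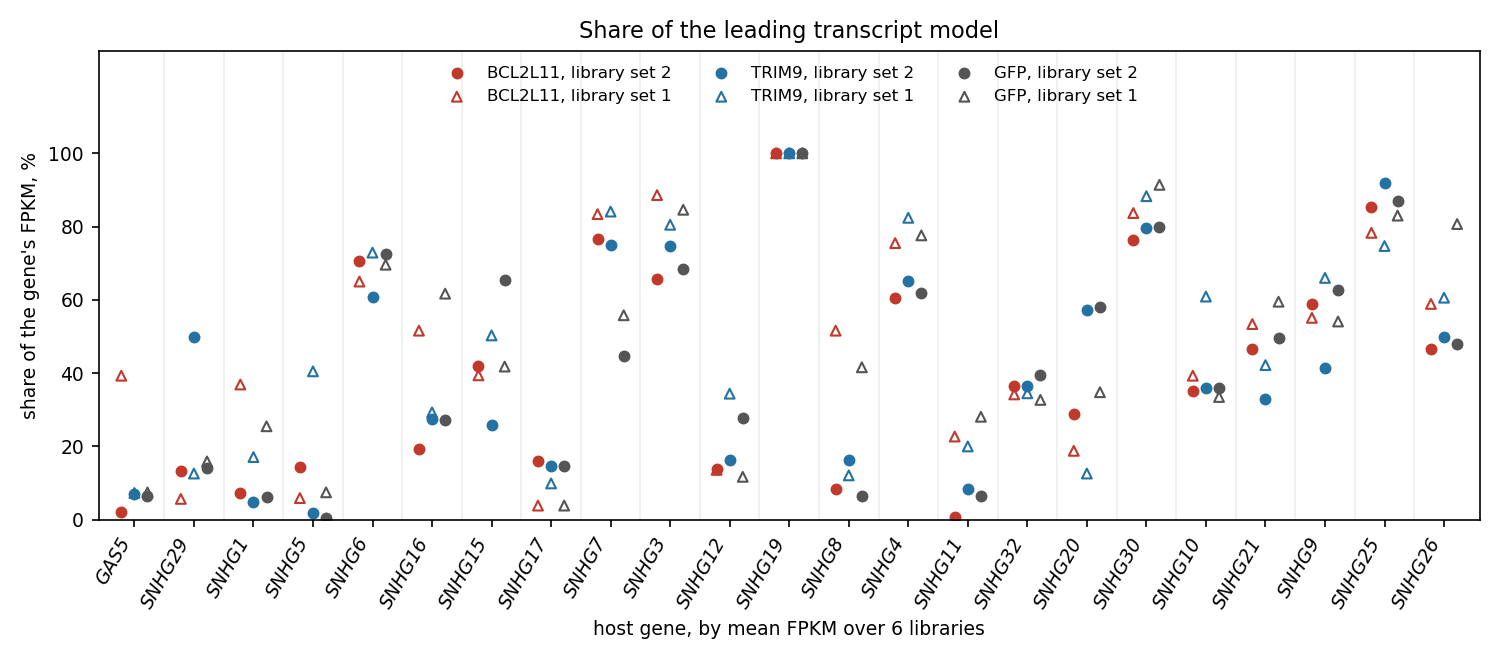
Share of each host gene's FPKM held by its most abundant transcript model, in percent, in the 2 libraries of each group; filled circles are library set 2 and open triangles set 1. The share is steady in SNHG6 (60.7% to 72.9%) and SNHG30 (76.4% to 91.4%) and scattered in GAS5 (2.24% to 39.3%), SNHG5 and SNHG1.

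Of the 23 hosts 13 overlapped another gene with a mean FPKM of at least 1, in 8 cases on the opposite strand. Strand use in the counting is not stated in the sources used here, so reads of such pairs may not have been told apart. On the opposite strand SNHG10 is overlapped by GLRX5 (mean FPKM 51.6), SNHG7 by DIPK1B (29.8) and SNHG12 by TRNAU1AP (23.6). SNHG3 shares its strand with RCC1, which had FPKM 87.1 to 107 in the 6 libraries. SNHG32 (chr6:31834608-31839766) has 4 further copies on alternate sequences of the assembly, at FPKM 7.96 to 26.7. Summed over the 5 loci it had FPKM 127 and 66.7 in BCL2L11 libraries, 65.9 and 39.7 in TRIM9 libraries and 55.4 and 59.7 in GFP libraries, and the call did not change. AL671762.1, on the same strand within the chromosome 6 locus, had FPKM 23.3 and 15.2 in BCL2L11 libraries, 0.919 and 0.898 in TRIM9 libraries and 2.82 and 5.62 in GFP libraries. It was higher in the BCL2L11 libraries, as SNHG32 was, though SNHG32 exceeded GFP by only 0.023 (log2) within set 2. The part of AL671762.1 in the SNHG32 value was not tested.

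Other genes with snoRNAs in their introns were followed beside the hosts. Of 3 tested noncoding hosts with other names (of 4 listed, MEG8 was too low), none passed for a trigger and 3 of 3 were lower in set 2. ZFAS1, host of SNORD12 snoRNAs, had FPKM 73.0 (BCL2L11), 76.8 (TRIM9) and 60.2 (GFP) in set 2, against 106, 95.6 and 133 in set 1. DANCR and EPB41L4A-AS1 differed by −0.62 and −0.64 (log2). Of 52 protein-coding hosts, 0 passed for a trigger, and 24 were lower and 4 higher in set 2, with a median of −0.55 (log2). Over all genes 10.3% were lower and 22.5% higher, and 27.7% were lower among those with leading models of at most 1500 bases. The 24 were mostly genes of ribosomal proteins and of translation, such as RPL13A (−1.12), RPS20 (−1.02) and RACK1 (−0.81). The 4 higher ones were IPO7 (1.09), an importin, EIF3A (0.88), WDR43 (0.73) and EIF4G2 (0.70).

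Of the 22 snoRNA particle and assembly proteins, 0 passed for a trigger, and 3 were lower and 2 higher in set 2, near or under the 10.3% and 22.5% of all genes. FBL, the methyltransferase of box C/D particles, had FPKM 84.4 (BCL2L11), 93.1 (TRIM9) and 88.6 (GFP) in set 2, against 230, 200 and 122 in set 1 (−0.99 ± 0.21, log2, SE; adjusted p = 0.0212, limma). GAR1, a box H/ACA protein, differed by −0.69 and the assembly factor PIH1D1 by −0.81. TGS1, a cap methyltransferase, and NAF1, an assembly factor of box H/ACA particles, were higher by 0.83 and 0.64. For the triggers the lowest p was that of NOP10, a box H/ACA protein, in both comparisons with GFP. It differed by 0.93 for BCL2L11, at an unadjusted p of 0.0648 and an adjusted p of 1 by limma. For TRIM9 it differed by 1.15, at an unadjusted p of 0.0306 and an adjusted p of 1 by limma.

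Of 17 NMD factors, 0 passed for a trigger, and 3 were higher and 0 lower in set 2, a share under the 22.5% higher over all genes. SMG1, the kinase that phosphorylates UPF1, had FPKM 12.9 (BCL2L11), 16 (TRIM9) and 14.3 (GFP) in set 2, against 4.48, 4.85 and 6.16 in set 1 (1.32 ± 0.15, log2, SE; adjusted p = 0.0111, limma). SMG8 (0.61) and UPF2 (0.59) were the others. Of 10 known NMD target RNAs outside the hosts, 0 passed for a trigger and 3 were lower in set 2, where 10.3% of all genes were: RP9P (−0.58), UPP1 (−0.51) and BAG1 (−0.46). For the triggers the lowest p belonged to ATF3, a stress-induced transcription factor, at −1.55 (log2) for TRIM9 against GFP, with an unadjusted p of 0.00106 and an adjusted p of 1 by limma. ATF3 also differed by −0.71 for BCL2L11 against GFP (unadjusted p = 0.0445, limma). Between BCL2L11 and TRIM9 it differed by 0.84 (unadjusted p = 0.0232, limma). Neither passed after adjustment.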

How the data were processed

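Per the submitters' processing notes STAR, StringTie 2.1.3 and cutadapt 3.4 were used with hg38; settings, annotation and strand use are not stated in the sources used here. For each of 6 poly-A libraries the deposited tables list 250719 transcripts with coverage, a signal of mean depth over the bases, and with FPKM, per the file headers. The deposited count table gave raw reads per mature miRNA. Per the file headers, the authors' deposited gene tables hold p-values and q-values beside fold changes, written both as a ratio and as log2. The miRNA comparison tables were not used.

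Gene FPKM was the sum over a gene's transcripts. The 15183 of 67053 genes that reached FPKM 1 in 2 or more libraries were fitted as log2(FPKM + 1) in limma 3.58.1 (R 4.3.3, trend, all 6 libraries in 1 fit) with group as the only term, and with group and library set for the sets. Fold changes are on that scale, which understates changes of low genes. Two-sided p-values were corrected over all genes by the Benjamini-Hochberg method, and 0.05 was the threshold. The fit was tested on simulated data. Values per library were given for the 8 most abundant hosts, all hosts that passed, and the 3 of largest difference for each trigger; SNHG7, SNHG20 and SNHG32 and the overlapping genes were added after their values were seen. Of each gene list, members that passed or had the lowest p were named. The hosts, lists and tests were chosen with earlier results of these data known. The summed SNHG32 loci and the split at 1500 bases were chosen after the data were seen.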

Additional observations from a re-analysis of the deposited data

How the results depend on the processing

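For the BCL2L11 and TRIM9 triggers against GFP, and for the triggers against each other, 0 of 23 hosts passed under every setting tried. With a replicate block, a term for the library set, the count was 0 in each of the 3 comparisons, with 2, 3 and 4 hosts at an unadjusted p under 0.05. The labels give no pairing. Deviations from the group means correlated across genes at 0.583 for BCL2L11 with GFP, 0.493 for TRIM9 with GFP and 0.83 for BCL2L11 with TRIM9. SNHG26, uncalled between the sets, ranged from −0.09 to 0.09 over the settings. The sign of several uncalled host differences turned when 1 library was left out.

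For set 2 against set 1 the 11 calls became 0 with no filter on low values, where more genes are tested, and 0 for the leading transcript model alone. Leaving out 1 library gave 4 to 16 calls. A median-of-ratios rescaling gave 13 and moved the median of all genes to −0.05 (log2), against 0.06 as reported. No group term gave 12 calls. A pseudocount of 0.1, a filter of FPKM 5, no variance trend, the assembled chromosomes alone and SNHG32 summed over its 5 loci each gave 11. The pyrimidine run was found in 11 hosts at 5 bases and in 2 at 7. FPKM values carry no read counts, so the counting error of a host is unknown. With 2 libraries per group an exact test cannot reach p = 0.05.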

Other observations

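SNHG20 also spans the gene of miR-6516, which the small RNA libraries of the same groups counted. Its mature strands are given from RefSeq (GRCh38.p14), with the seed, bases 2 to 8, in capitals.
hsa-miR-6516-5p, chr17:77089428-77089449, plus strand: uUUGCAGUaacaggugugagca
hsa-miR-6516-3p, chr17:77089469-77089490, plus strand: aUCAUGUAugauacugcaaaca
The 5p strand had 11 and 11 reads in BCL2L11 libraries, 16 and 2 in TRIM9 libraries and 14 and 11 in GFP libraries, of 5018875 to 6091151 reads assigned to miRNAs per library. The 3p strand had 2 and 0 reads in BCL2L11 libraries, 1 and 4 in TRIM9 libraries and 3 and 3 in GFP libraries. The SNHG20 host had FPKM 11.1 and 7.28 in BCL2L11 libraries, 11 and 11.9 in TRIM9 libraries and 10.1 and 9.13 in GFP libraries. The counts are low, and a difference of the miRNA between groups was not tested.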
